A study of Homo sapiens with 6 samples.

Results

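The unfolded protein response and the integrated stress response were examined through 10 genes, *ATF4*, *ATF6*, *XBP1*, *ERN1*, *DDIT3*, *TRIB3*, *ASNS*, *CHAC1*, *HERPUD1*, and *PPP1R15A*, which are the rows of the raw count table that carry these gene names. They are 10 of the 60623 genes in the table, and all 10 were among the 13966 genes that passed the filter on low counts. RNA-Seq was performed in TC28a2 cells, an immortalized line of human chondrocytes. The cells received 2 μM mocetinostat, an inhibitor of class I histone deacetylases (HDACs), or the solvent dimethyl sulfoxide (DMSO), for 24 hours. Each condition had 3 samples (n = 3) of the same cell line, so that every value describes 1 line only. The study describes the samples as coming from independent experiments, which the sample labels do not state. The comparison of mocetinostat with DMSO addresses which of these stress-response genes differ in mRNA level after class I HDAC inhibition.

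Proteins that enter the secretory pathway are folded in the endoplasmic reticulum (ER), which in chondrocytes handles large amounts of collagen and other matrix proteins. When unfolded proteins accumulate there, the sensors IRE1 (encoded by *ERN1*), PERK (encoded by *EIF2AK3*), and ATF6 start the unfolded protein response, in which IRE1 splices the *XBP1* mRNA, ATF6 is cleaved to release a transcription factor, and PERK phosphorylates the translation initiation factor eIF2. Other eIF2 kinases respond to amino acid shortage, heme deficiency, or viral RNA, and all of them feed the integrated stress response, which lowers general translation while it raises the translation of *ATF4* mRNA. Because *ATF4* is controlled largely at translation and *XBP1* by splicing, counts of reads per gene measure the amount of these mRNAs and not the activity of the proteins.

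The transcription factors of these pathways bind short DNA motifs, and promoter sequences are given here for the genes whose windows hold one. The windows are those of RefSeq on GRCh38.p14 and run from 250 bases before to 50 bases after each annotated start. Both strands were searched for 5 motifs, namely the amino acid response element (CARE, TGATGNAA) bound by ATF4 with a C/EBP partner, the ER stress response elements ERSE (CCAAT and CCACG with 9 bases between them) and ERSE-II (ATTGG and CCACG with 1 base between them), which ATF6 binds together with NF-Y, the unfolded protein response element (UPRE, TGACGTGG), and the cAMP response element (CRE, TGACGTCA). ERSE, ERSE-II, and, on its reverse strand, UPRE share the letters CCACG. Windows were found for all 10 genes. Of all 35116 windows, 3.62% held CARE, 0.0769% ERSE, 0.0541% ERSE-II, 0.729% UPRE, and 1.85% CRE. Counted by gene, in any of its windows, the shares of 27305 genes were 4.46% for CARE, 0.0916% for ERSE, 0.0696% for ERSE-II, 0.927% for UPRE, and 2.25% for CRE. CARE was present for *ASNS*, *CHAC1*, and *HERPUD1*, ERSE for *XBP1*, ERSE-II for *HERPUD1*, and CRE for *PPP1R15A*, and none of the 10 windows held UPRE. *HSPA5* is added as the ER chaperone gene in which ERSE is best known. The capitals mark the motif, read 5′ to 3′ on the strand of the gene, and the sequence of *HERPUD1* shows all 250 bases before its start, with the reverse-strand CARE first and ERSE-II second. A match is a stretch of letters and not a measured binding site. Sequence outside the windows and variants of the motifs were not searched, so a gene without a match can still have such an element.
HERPUD1, chr16:56931892-56932141 (+): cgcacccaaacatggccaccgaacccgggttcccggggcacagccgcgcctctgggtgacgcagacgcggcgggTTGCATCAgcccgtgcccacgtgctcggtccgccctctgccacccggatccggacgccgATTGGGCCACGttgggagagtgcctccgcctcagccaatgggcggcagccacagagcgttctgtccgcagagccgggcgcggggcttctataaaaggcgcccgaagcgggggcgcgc
XBP1, ERSE, chr22:28800598-28800626 (-): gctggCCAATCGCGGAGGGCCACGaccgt
HSPA5, ERSE, chr9:125241386-125241414 (-): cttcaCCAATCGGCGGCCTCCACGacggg
ASNS, CARE, chr7:97872458-97872487 (-): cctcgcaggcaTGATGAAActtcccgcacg
CHAC1, CARE, chr15:40953251-40953280 (+): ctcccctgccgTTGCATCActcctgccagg
PPP1R15A, CRE, chr19:48872352-48872381 (+): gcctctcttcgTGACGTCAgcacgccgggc

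The *HERPUD1* sequence overlapped no exon in GENCODE release 44, and its CARE and ERSE-II sites and the *XBP1* and *HSPA5* sites overlapped no gene. The *ASNS*, *CHAC1*, and *PPP1R15A* sites, although upstream of the RefSeq starts, lay in 5′ untranslated exons of longer GENCODE transcripts of the same genes.

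Total counts ranged from 4873426 to 11031132 in the DMSO samples and from 1619344 to 5089542 in the mocetinostat samples, so that depth differed between conditions, and the reads of mitochondrial genes made up 2.98% to 3.15% and 3.40% to 3.55% of counts, respectively. The summed level of 15 chondrocyte markers was 126 to 147 CPM (read counts scaled to library size) with DMSO and 268 to 311 CPM with mocetinostat, and 10 of them passed the filter, while *CNMD* had 3 counts or fewer in every sample. For 8 fibroblast and bone markers, of which 6 passed, the summed level was 4726 to 5682 CPM and 4328 to 4717 CPM, and *BGLAP* had 3 counts or fewer throughout. For 8 blood and endothelial markers, of which 5 passed, it was 6.73 to 10.3 CPM and 49.8 to 54.7 CPM, with *CD68* and *LYZ* at 3 counts or fewer throughout. Most of the chondrocyte sum was *SOX9* (means of 105.6 CPM with DMSO and 178.4 CPM with mocetinostat). Most of the fibroblast and bone sum was *COL1A1* (4508 and 3901 CPM), so the sums do not describe each marker. Of the markers that passed, 2 of chondrocytes, 1 of fibroblasts and bone, and 4 of blood and endothelium did so with at most 1 DMSO sample above the minimum of the filter, so that a count of those that rose would be fixed in part by the filter. The part of depth and of these markers in the results that follow was not tested.

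Levels are CPM scaled by trimmed mean of M values (TMM), given as mean ± SD of 3 samples, and differences are log2 fold changes of mocetinostat over DMSO with their standard errors (SE) from edgeR's quasi-likelihood test. A gene rose or fell when its p adjusted over all 13966 genes was under 0.05, and it was called upregulated or downregulated when its log2 fold change was also beyond 1 in absolute value. Among the 10 genes, 3 rose (*HERPUD1*, *ERN1*, and *ASNS*), 3 fell (*XBP1*, *ATF6*, and *PPP1R15A*), and 4 did not pass the test (*ATF4*, *DDIT3*, *TRIB3*, and *CHAC1*). Of all genes tested, 32.9% rose and 31.4% fell, so these counts were near the background. *HERPUD1* and *ERN1* were called upregulated and none was called downregulated, compared with 20.2% and 8.18% of all genes tested. The mocetinostat samples lay entirely above the DMSO samples for *HERPUD1*, *ERN1*, *ASNS*, and *CHAC1* and entirely below for *ATF6* and *XBP1*, an absence of overlap that 33.7% and 32.8% of all genes showed upward and downward. The median log2 fold change was 0.01 over the 10 genes and -0.0021 over all genes. Scaling to *GAPDH*, itself lower with mocetinostat (3015 ± 89.1 against 2094 ± 75.7 CPM), shifted the median of all genes by 0.54, and with it none of the 10 genes fell and 6 rose. The shares of all genes that rose or fell under this scaling were not computed, so these counts stand without a background. In bulk RNA, a smaller share of cells with an mRNA and less of that mRNA per cell cannot be told apart.

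**Figure D1:**
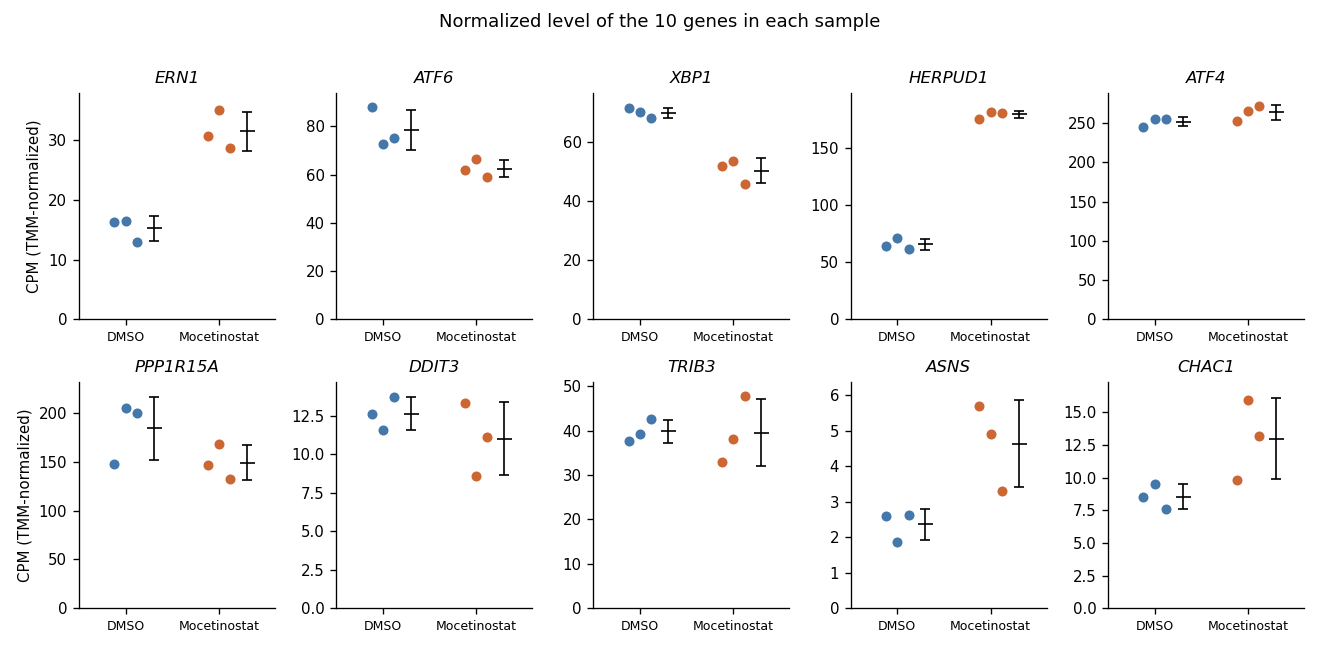
Normalized level (CPM, linear axes from 0) of the 10 genes in each of the 3 DMSO and 3 mocetinostat samples, with bars for the mean ± SD. HERPUD1 stands at 61.7 to 71.1 CPM with DMSO and 175.6 to 181.4 CPM with mocetinostat, while the ATF4, DDIT3, TRIB3, and PPP1R15A samples of the conditions overlap.

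The sensors and the factors they act on moved in different directions. *ERN1* (ENSG00000178607, chr17:64039080-64130819), the gene of IRE1, was at 16.2, 16.5, and 12.9 CPM in the DMSO samples and at 30.7, 35.0, and 28.8 CPM in the mocetinostat samples. Every mocetinostat sample was above every DMSO sample. The means were 15.2 ± 2.04 and 31.5 ± 3.21 CPM, a log2 fold change of 1.03 (SE 0.18, adjusted p = 1.19e-06, edgeR). *ERN1* rose under every setting tried except the test against a minimum change, but its call as upregulated lay at the threshold, and the log2 fold change was 0.90 without DMSO replicate 3, 0.95 without mocetinostat replicate 2, and 0.78 without the filter. When the test was made against a log2 fold change of 1, the adjusted p was 0.721, among values from 5.80e-10 to 0.721 over all settings.

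*ATF6* (ENSG00000118217, chr1:161766298-161977574), which encodes the sensor that is cleaved to a transcription factor, was at 88.0, 72.5, and 75.3 CPM with DMSO and at 61.8, 66.4, and 59.2 CPM with mocetinostat. The conditions did not overlap, and the level fell by 0.35 on the log2 scale (SE 0.12, adjusted p = 0.00958). *XBP1* (ENSG00000100219, chr22:28794555-28800597), whose mRNA is the substrate of IRE1, was at 71.5, 70.2, and 68.1 CPM with DMSO and at 51.9, 53.5, and 45.6 CPM with mocetinostat. All mocetinostat samples were lower, at 71.9% of the DMSO level on average, and the level fell by 0.48 on the log2 scale (SE 0.13, adjusted p = 0.000696). Scaled to *GAPDH*, the log2 fold changes of *ATF6* and *XBP1* were 0.19 and 0.06, beside the shift of 0.54 that this scaling gave the median gene. After thinning of all libraries to the smallest total, *ATF6* did not pass.

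*HERPUD1* had the largest difference of the 10 genes. It encodes an ER membrane protein that takes part in ER-associated degradation and is a target of all arms of the unfolded protein response, and its promoter window was the one with both CARE and ERSE-II. *HERPUD1* (ENSG00000051108, chr16:56932142-56944864) was at 64.1, 71.1, and 61.7 CPM in the DMSO samples and at 175.6, 181.4, and 180.9 CPM in the mocetinostat samples. The conditions were far apart relative to the spread within each of them. The means were 65.6 ± 4.87 and 179.3 ± 3.18 CPM, a log2 fold change of 1.45 (SE 0.10, adjusted p = 2.75e-21) with a 95% interval of 1.25 to 1.65.

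The mRNA of the central factor of the integrated stress response did not pass the test. *ATF4* (ENSG00000128272, chr22:39519695-39522683), the transcription factor gene, was at 245.7, 255.1, and 255.3 CPM with DMSO and at 253.5, 265.6, and 272.6 CPM with mocetinostat. The conditions overlapped, and the log2 fold change was 0.06 (SE 0.08, adjusted p = 0.502) with a 95% interval of -0.10 to 0.23. With 432 reads or more in every sample, the interval was the narrowest of the 10 genes. Scaled to *GAPDH*, the log2 fold change was 0.59 (adjusted p = 3.29e-07, range over settings 3.29e-07 to 0.821), close to the shift of the median gene.

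*PPP1R15A* (GADD34, ENSG00000087074, chr19:48872212-48876059), the stress-induced subunit of the phosphatase that reverses eIF2 phosphorylation, was at 147.5, 205.8, and 200.3 CPM with DMSO and at 146.7, 168.5, and 132.8 CPM with mocetinostat. DMSO replicate 1 was the lowest of its condition and lay within the mocetinostat range. The gene fell by 0.31 on the log2 scale (SE 0.10, adjusted p = 0.00583), by 0.48 without that sample, and its log2 fold change was 0.22 when scaled to *GAPDH*, and it did not pass after thinning. *PPP1R15B* (from 85.7 ± 5.39 to 113.7 ± 4.86 CPM), the constitutive counterpart, rose (log2 fold change 0.40, SE 0.11, adjusted p = 0.000705) but did not pass after thinning or without the filter.

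*DDIT3*, *TRIB3*, *ASNS*, and *CHAC1* are induced downstream of ATF4, and some of them had few reads here. *DDIT3* (CHOP, ENSG00000175197, chr12:57516588-57521737), a transcription factor linked to cell death in prolonged ER stress, was at 12.7, 11.6, and 13.7 CPM with DMSO and at 13.4, 8.61, and 11.1 CPM with mocetinostat. The conditions overlapped and the log2 fold change was -0.13 (SE 0.24, adjusted p = 0.643, 95% interval -0.61 to 0.34), so that a change of up to 0.34 upward or 0.61 downward was within this interval. Of its exon bases, 8.03% are shared with another gene on the same strand and 31.6% with genes on the opposite strand, mainly *MARS1*, and whether the counting used strand is not given in the sources used here. *TRIB3* (ENSG00000101255, chr20:362835-397559), a pseudokinase that restrains ATF4 and CHOP, was at 37.6, 39.3, and 42.7 CPM with DMSO and at 32.8, 38.1, and 47.7 CPM with mocetinostat. The mocetinostat samples surrounded the DMSO samples, and the log2 fold change was -0.03 (SE 0.15, adjusted p = 0.849, 95% interval -0.33 to 0.26).

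*ASNS* (ENSG00000070669, chr7:97851677-97872542), asparagine synthetase, had 29, 9, and 18 reads in the DMSO samples and 29, 8, and 8 reads in the mocetinostat samples. The corresponding levels were 2.603, 1.86, and 2.63 CPM and 5.70, 4.92, and 3.29 CPM, without overlap. The gene passed the filter on low counts, whose minimum was 2.01 CPM in 3 samples, with DMSO replicate 2 under that minimum. It rose (log2 fold change 0.98, SE 0.44, adjusted p = 0.0449), but the adjusted p ranged from 0.00228 to 0.306 over the settings tried and was above 0.05 without DMSO replicate 1 (0.0901), DMSO replicate 2 (0.129), DMSO replicate 3 (0.0805), mocetinostat replicate 1 (0.306), or mocetinostat replicate 2 (0.0752), and with DESeq2 (0.207). Of the *ASNS* exon bases, 49.3% are shared on the same strand with the gene AC079781.5, which had 19, 7, and 6 reads with DMSO and 8, 0, and 1 with mocetinostat. *CHAC1* (ENSG00000128965, chr15:40952962-40956512), an enzyme that degrades glutathione, had 46 to 95 reads with DMSO and 26 to 50 with mocetinostat. Its levels were 8.53, 9.50, and 7.60 CPM and 9.83, 16.0, and 13.2 CPM. The samples did not overlap, yet the log2 fold change of 0.54 (SE 0.26, adjusted p = 0.0689) missed the threshold. It passed without mocetinostat replicate 1 (adjusted p = 0.0311), with a minimum of 10 counts in every sample (0.0291), with scaling to *GAPDH* (0.000448), and after thinning to the smallest total (0.0459), where the log2 fold change was 1.51, among values from 0.000448 to 0.472 over all settings.

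**Figure D2:**
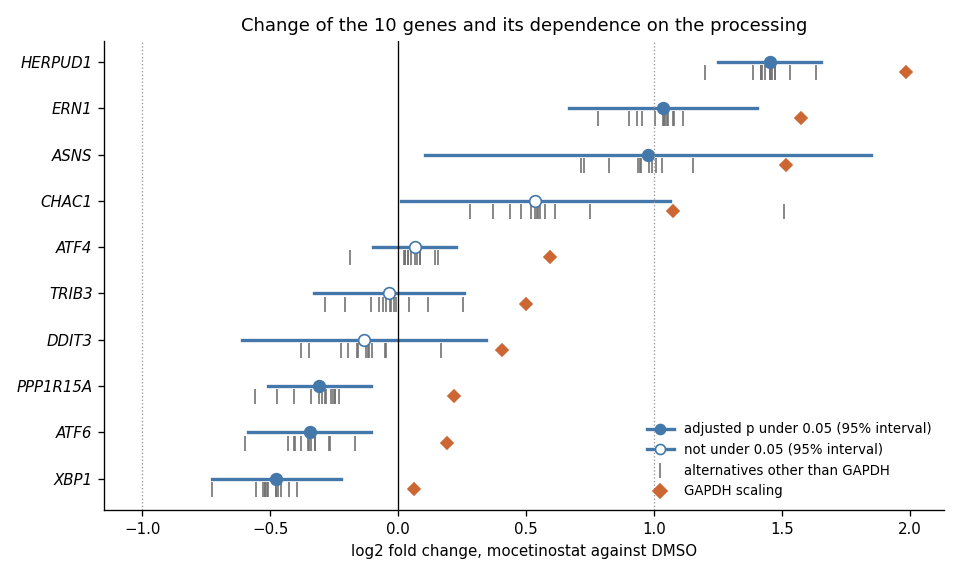
Log2 fold change of mocetinostat over DMSO for the 10 genes, as points with 95% intervals. The intervals of HERPUD1 (1.25 to 1.65), ERN1 (0.67 to 1.401), ASNS (0.105 to 1.85), and CHAC1 (0.0105 to 1.06) lie above 0. Those of XBP1, ATF6, and PPP1R15A lie below 0, and those of ATF4, DDIT3, and TRIB3 include 0. The intervals are not adjusted for the number of genes, and CHAC1 did not pass after adjustment.

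Levels per kilobase of merged exon put the 10 genes in order. Merged length joins all annotated exons (19.2 kb for *ERN1*, 14.3 kb for *ATF6*, 5.06 kb for *HERPUD1*), so the order depends on the annotation. It also depends on how reads were counted for *ASNS* and *DDIT3*, whose exons are partly shared with other genes. With DMSO the order was *ATF4* (96.5 CPM per kb), *PPP1R15A* (53.7), *XBP1* (23.1), *HERPUD1* (12.96), *TRIB3* (12.1), *DDIT3* (9.68), *ATF6* (5.51), *CHAC1* (4.17), *ERN1* (0.794), and *ASNS* (0.483). Only *HERPUD1* and *TRIB3* were neighbors with overlapping samples. With mocetinostat *HERPUD1*, at 35.4 CPM per kb, stood above *XBP1* at 16.6 CPM per kb, and *CHAC1* stood above *ATF6*. There, *TRIB3* and *DDIT3*, and *DDIT3* and *CHAC1*, were the neighbors with overlapping samples.

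The other genes of these pathways were taken from 10 lists by role, in which 141 of 146 genes were tested. Over these lists 42 genes rose, 48 fell, and 51 did not pass the test, 7 were called upregulated and 7 downregulated, and the median log2 fold change was -0.06. *CEBPD*, counted as fallen and downregulated, reached the minimum of the filter in at most 1 mocetinostat sample, as did *CBS*, which did not pass the test. Over all genes tested 32.9% rose and 31.4% fell, near the counts over the lists, while 20.2% were called upregulated, a larger share than the 7 of 141 list genes, and 8.18% downregulated. The counts differed from list to list. In ER chaperones and folding enzymes, 11 of 20 rose and 1 fell. In the list of secreted factors and death receptors, which also holds *VLDLR*, *BBC3*, *BCL2L11*, and *ERO1A*, 6 of 8 rose and none fell. In aminoacyl-tRNA synthetases, 1 of 20 rose and 14 fell. These directions were also not independent of scaling. With scaling to *GAPDH*, 19 of 20 chaperones rose, and 6 synthetases rose while 2 fell, with a synthetase median of 0.14 beside the shift of 0.54. Without the filter, which moved the median gene by -0.25, 4 chaperones rose and 5 fell. After thinning, no gene of ER-associated degradation and none of amino acid transport fell. For these other settings the shares of all genes tested were not computed, so their counts stand without a background.

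**Figure D3:**
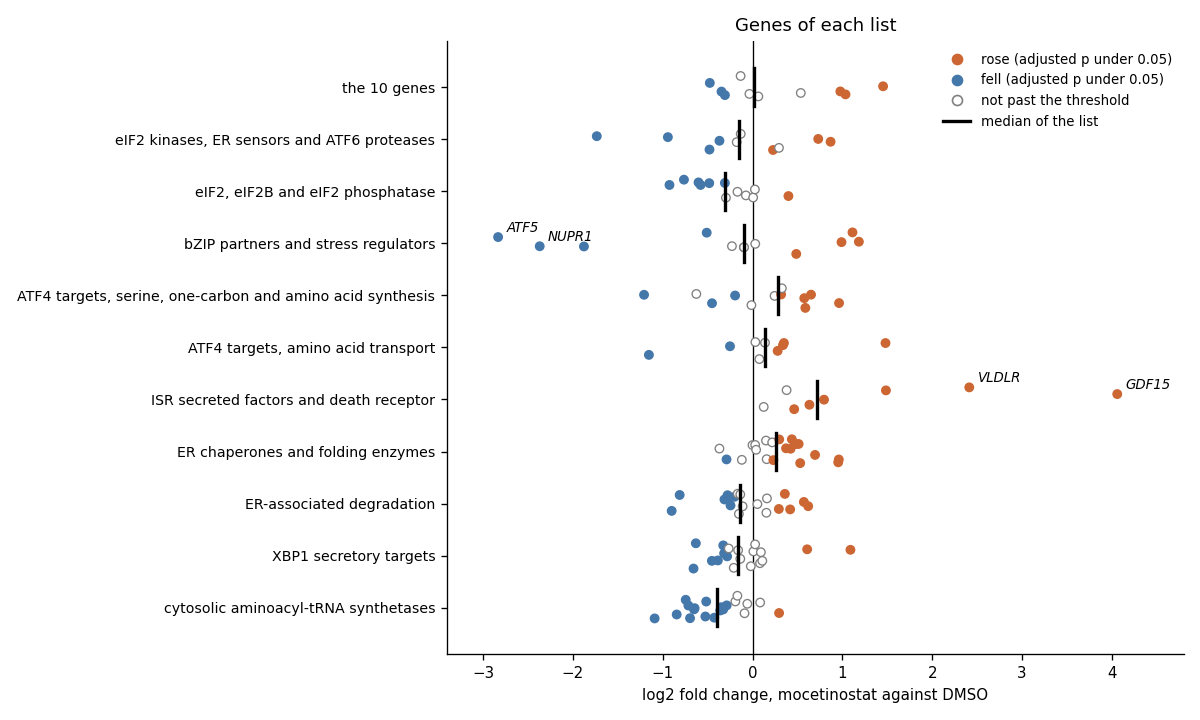
Log2 fold change of mocetinostat over DMSO for every tested gene of the 10 pathway lists and the 10 genes under study, 1 point per gene, filled where the gene rose or fell and open where it did not pass the test, with the median of each list as a thick bar. The medians run from -0.39 in aminoacyl-tRNA synthetases to 0.71 in the list of secreted factors and death receptors, which also holds genes of other roles. The thin vertical line marks 0, close to the median of all genes tested (-0.0021).

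Among eIF2 kinases, ER sensors, and the proteases that cleave ATF6, 3 of 10 genes tested rose, 4 fell, and 3 did not pass, beside 32.9% and 31.4% of all genes tested that rose and fell. *CREB3L2* (130.03 ± 15.0 to 237.5 ± 18.8 CPM), an ER-anchored relative of ATF6 that is known for its role in cartilage matrix secretion, rose by a log2 fold change of 0.87 (SE 0.09, adjusted p = 3.27e-13). *CREB3L1*, another relative, was at 96.6, 116, and 124 CPM with DMSO and at 36.8, 28.9, and 32.5 CPM with mocetinostat. The conditions were well apart, and *CREB3L1* fell by 1.73 on the log2 scale (SE 0.13, adjusted p = 1.07e-19). *MBTPS1* (310.8 ± 22.4 and 283.1 ± 11.8 CPM), the protease that makes the initial cut in ATF6, did not pass (log2 fold change -0.13, adjusted p = 0.147). It fell without DMSO replicate 1 (-0.20) or without the filter (-0.38), and its log2 fold change was reversed, at 0.40, when scaled to *GAPDH*. *EIF2AK3*, the gene of PERK, was singled out after its values were seen and rose from 33.2 ± 4.19 to 53.8 ± 5.04 CPM (log2 fold change 0.73, SE 0.14, adjusted p = 4.85e-06). Of eIF2, eIF2B, and phosphatase genes, 1 of 12 rose, which was *PPP1R15B*, and 6 fell. *EIF2B1* (53.2 ± 1.04 to 29.6 ± 6.94 CPM), a subunit of the exchange factor that phosphorylated eIF2 inhibits, fell by 0.92 on the log2 scale (SE 0.15, adjusted p = 1.47e-07) but did not pass after thinning, while *EIF2S3* (386.3 ± 19.6 and 388.7 ± 10.7 CPM), a subunit of eIF2, did not pass (log2 fold change 0.01, adjusted p = 0.948).

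Basic leucine zipper partners and stress regulators divided into 4 that rose, 4 that fell, and 4 that did not pass, near the 32.9% and 31.4% of all genes tested. *CEBPD*, which fell, passed the filter with at most 1 mocetinostat sample above its minimum, so that its place in this count was fixed in part by the filter. *ATF3*, a factor induced by many stresses, was at 18.0, 16.9, and 22.1 CPM with DMSO and at 49.6, 38.1, and 39.1 CPM with mocetinostat. All mocetinostat samples were higher, and the log2 fold change was 1.18 (SE 0.16, adjusted p = 2.67e-09). *ATF5*, a factor translated under eIF2 phosphorylation like *ATF4*, was at 54.5, 65.1, and 64.0 CPM with DMSO and at 10.03, 9.84, and 4.93 CPM with mocetinostat. *ATF5* had the lowest value of all list genes and fell by 2.83 on the log2 scale (SE 0.19, adjusted p = 1.72e-22), with 19.5% of its exon bases overlapped on the opposite strand. *CEBPB* (194.9 ± 22.6 to 387.7 ± 44.7 CPM), a C/EBP factor that can pair with ATF4, rose by a log2 fold change of 0.99 (SE 0.09, adjusted p = 8.22e-17). *NUPR1*, a stress-induced chromatin protein singled out after its values were seen, went from 28.7 ± 2.42 to 6.16 ± 2.66 CPM and fell by 2.37 on the log2 scale (SE 0.24, adjusted p = 5.13e-14).

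The ATF4 targets of amino acid metabolism did not all move in the same direction, nor did all genes tested, of which 32.9% rose and 31.4% fell. For serine, one-carbon, and amino acid synthesis, 5 of 12 rose and 3 fell, and for amino acid transport, 4 of 9 tested rose and 2 fell. *SHMT2*, the mitochondrial serine hydroxymethyltransferase, was at 268.6 ± 0.647 CPM with DMSO and at 115.8 ± 5.60 CPM with mocetinostat and fell by 1.21 on the log2 scale (SE 0.09, adjusted p = 8.01e-20). *PHGDH* (187.3 ± 20.3 to 293.1 ± 8.36 CPM), which opens serine synthesis, rose by a log2 fold change of 0.65 (SE 0.09, adjusted p = 4.51e-10). *CTH* (3.64 ± 1.81 to 6.66 ± 2.04 CPM), an enzyme of cysteine synthesis, rose by 0.96 (SE 0.38, adjusted p = 0.0219) although the conditions overlapped. Its log2 fold change was 0.64 without DMSO replicate 1, 0.83 without DMSO replicate 2, 0.79 without mocetinostat replicate 1, and 0.87 without mocetinostat replicate 3, none of which passed, and 1.42 without DMSO replicate 3, and it did not pass with DESeq2 or without the filter. *SLC1A4*, a carrier of neutral amino acids, was at 28.9, 28.5, and 31.1 CPM with DMSO and at 83.2, 75.0, and 87.6 CPM with mocetinostat, a log2 fold change of 1.48 (SE 0.13, adjusted p = 1.14e-16). *SLC6A9*, a glycine transporter, went from 15.5 ± 0.982 to 7.64 ± 3.51 CPM and fell by 1.15 on the log2 scale (SE 0.26, adjusted p = 0.000104), but after thinning by 0.65, which did not pass. *SLC38A2* (445.0 ± 41.6 and 455.4 ± 16.4 CPM), the carrier known for its response to amino acid shortage, did not pass (log2 fold change 0.03, adjusted p = 0.738).

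*GDF15*, a secreted stress cytokine, was at 8.26, 4.75, and 7.75 CPM in the DMSO samples and at 122, 132, and 111 CPM in the mocetinostat samples. Its level was 16.7-fold higher and the log2 fold change 4.06 (SE 0.15, adjusted p = 4.83e-36), the highest value of the lists. *STC2* (500.9 ± 50.9 to 691.7 ± 55.1 CPM), a secreted glycoprotein, rose by a log2 fold change of 0.46 (SE 0.07, adjusted p = 1.34e-07), while *ERO1A* (135.0 ± 17.2 and 145.5 ± 17.9 CPM), an ER oxidase, did not pass (adjusted p = 0.279). *VLDLR*, a lipoprotein receptor, and *BCL2L11*, which encodes the cell death protein BIM, were singled out after their values were seen and were called upregulated, with log2 fold changes of 2.41 (SE 0.19, adjusted p = 2.78e-18) and 1.48 (SE 0.13, adjusted p = 9.10e-17).

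Among ER chaperones, *HSPA5*, the gene of BiP, was at 787, 778, and 782 CPM with DMSO and at 1551, 1441, and 1571 CPM with mocetinostat. Its samples were far apart by condition, and the log2 fold change of 0.96 (SE 0.07, adjusted p = 8.65e-22) was just under the limit for an upregulated gene. *CALR* (1474 ± 92.4 to 1908 ± 45.4 CPM), the lectin chaperone calreticulin, rose by a log2 fold change of 0.37 (SE 0.06, adjusted p = 3.23e-07) and did not pass without the filter. *TXNDC5* (4.03 ± 0.510 and 3.03 ± 0.496 CPM), which shares 60.9% of its exon bases with a readthrough gene on the same strand, did not pass (log2 fold change -0.37, adjusted p = 0.465). In ER-associated degradation, 5 of 19 genes tested rose and 7 fell, beside 32.9% and 31.4% of all genes tested. *EDEM2* (31.9 ± 3.11 to 48.5 ± 2.04 CPM), which helps to select misfolded glycoproteins, rose by 0.62 (SE 0.14, adjusted p = 0.000111) and did not pass without the filter. *UBE2J1* (90.3 ± 4.73 to 48.3 ± 1.57 CPM), a ubiquitin-conjugating enzyme of the ER membrane, fell by 0.90 on the log2 scale (SE 0.12, adjusted p = 1.02e-09), and *VCP*, the ATPase that pulls substrates out of the membrane, fell by 0.20 (SE 0.07, adjusted p = 0.0133). Neither passed after thinning, and *VCP* also did not pass without mocetinostat replicate 3 or with a minimum of 10 counts in every sample.

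In the list of secretory targets of XBP1, 2 of 19 genes tested rose and 7 fell, beside 32.9% and 31.4% of all genes tested. *WFS1*, an ER membrane protein, was at 48.6, 50.2, and 52.1 CPM with DMSO and at 112, 104, and 103 CPM with mocetinostat, the only gene of this list that was called upregulated (log2 fold change 1.09, SE 0.11, adjusted p = 2.42e-13). *SEC62* (157.6 ± 7.24 to 100.6 ± 4.14 CPM) and *SEC61A1* (417.5 ± 17.9 to 335.8 ± 20.7 CPM), parts of the protein translocation machinery, fell by 0.66 (SE 0.10, adjusted p = 2.14e-08) and 0.32 (SE 0.08, adjusted p = 0.000247) on the log2 scale. Among the aminoacyl-tRNA synthetases, many of which are ATF4 targets, *AARS1* (298.9 ± 19.8 to 366.3 ± 10.5 CPM) was the 1 gene that rose, by a log2 fold change of 0.30 (SE 0.08, adjusted p = 0.000722), a call lost without the filter. *WARS1* was at 95.5, 84.9, and 97.2 CPM with DMSO and at 44.3, 41.8, and 43.99 CPM with mocetinostat and fell by 1.09 on the log2 scale (SE 0.12, adjusted p = 3.86e-12).

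**Figure D4:**
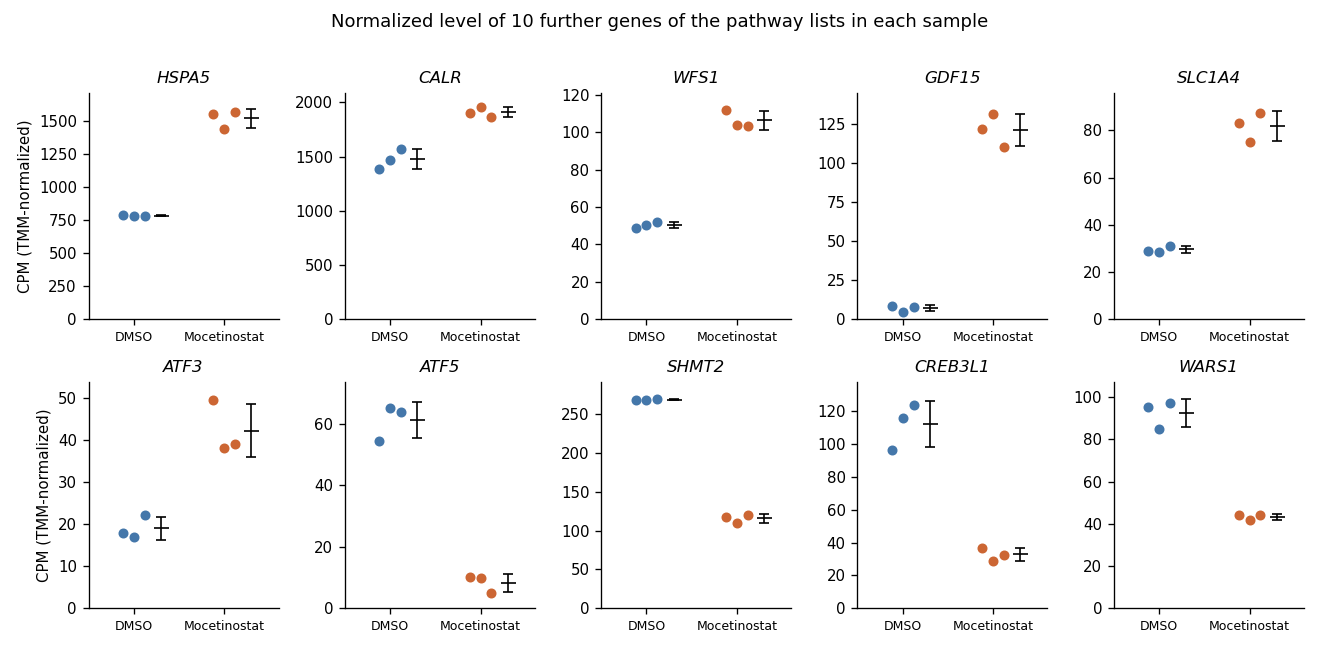
Normalized level (CPM, linear axes from 0) of 10 further genes of the pathway lists in each of the 3 DMSO and 3 mocetinostat samples, with bars for the mean ± SD. HSPA5, CALR, WFS1, GDF15, SLC1A4, and ATF3 are higher and ATF5, SHMT2, CREB3L1, and WARS1 lower in every mocetinostat sample than in any DMSO sample.

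The motifs were set beside these values as a description. Of all genes tested, with or without a motif, 32.9% rose and 31.4% fell. Of the 19 chaperone genes with a promoter window, 8 held ERSE or ERSE-II, of which 4 rose and 4 did not pass, with a median log2 fold change of 0.26, and of the other 11 genes 7 rose and 1 fell, with a median of 0.30. Of the 16 synthetase genes with a window, 7 held CARE, of which 1 rose and 4 fell, with a median of -0.36, and of the other 9 genes none rose and 6 fell, with a median of -0.33. Of the 8 tested transport genes with a window, 5 held CARE, of which 2 rose and 1 fell (median 0.14), and of the other 3 genes 1 rose and 1 fell (median 0.03). Among the 10 genes, 2 of the 3 with CARE rose (median 0.98), and of the other 7, 1 rose and 3 fell (median -0.13). These are few genes, and *ASNS*, which held CARE, lost its call in most fits that left out 1 sample and with DESeq2. *HERPUD1* and *HSPA5*, whose sites are printed above, were higher with mocetinostat, whereas *XBP1*, which also holds ERSE, was lower.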

How the data were processed

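RNA-Seq was measured in 3 DMSO and 3 mocetinostat samples of TC28a2 cells. The authors deposited 1 table of raw counts of reads per gene, without normalization. The submitters' processing notes name STAR 2.6.1d, featureCounts 1.6.4, and DESeq2 1.20.0 with GRCh38. How multimapping reads were treated, and whether strand was used, is not given in the sources used here, so genes with overlapping neighbors are uncertain to that extent. Columns were matched to samples by name. Totals were 1619344 to 11031132 counts per sample, so the shallow mocetinostat samples limit the precision of genes with few reads.

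From the counts, edgeR 4.0.16 in R 4.3.3 (limma 3.58.1) computed TMM factors, kept genes by filterByExpr (minimum count 10), and ran the quasi-likelihood test with treatment only, with Benjamini-Hochberg adjustment over all genes tested. The script was first tested on simulated data. SEs are the absolute log2 fold change divided by the square root of F. The 6 replicate pairs within conditions differed by 1.96 to 7.19 in chi-square per degree of freedom, more than sampling noise, so no pair was taken for 1 library deposited repeatedly. That does not show separate cultures, which the labels do not state, and otherwise the p-values measure technical spread only. No pairing by replicate number was detected (correlations of same-number deviations from -0.0162 to 0.0116). With 3 samples per condition, this does not show that the samples were unpaired.

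The genes and lists were chosen with earlier results of these data known. Named genes were the 10 genes and, in each list, the tested gene with the highest fold change, the lowest fold change, and the highest mean CPM, and others are marked as singled out after their values were seen. *ERN2*, *SLC7A3*, *FGF21*, *DERL3*, and *BLOC1S1* did not pass the filter. Lengths, positions, and overlaps were taken from GENCODE release 44 (99.5% of identifiers matched) and promoters from RefSeq. Alternatives were DESeq2 1.42.0, other scalings and filters, glmTreat, a replicate block, thinning to the smallest total, and leaving out each sample. Summaries were made with pandas 2.3.3 and plots with matplotlib 3.10.9, in Python 3.11.15.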

Additional observations from a re-analysis of the deposited data

How the results depend on the processing

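Shares of all genes tested were computed for the main fit only, so the counts under other settings stand without a background. Of the 10 stress-response genes, 6 rose and none (0) fell with scaling to *GAPDH*, and 1 fell after thinning to the smallest total. With *GAPDH* 4 were called upregulated, without the filter 1, and with glmTreat 1. Leaving out each sample gave 2 to 3 that rose, 3 that fell, and 1 to 3 called upregulated. Over the pathway lists, *GAPDH* scaling gave 95 that rose, 11 that fell, 26 called upregulated, and 4 downregulated. No filter gave 19 that rose and 13 called downregulated, thinning 25 that fell and 12 called upregulated, and glmTreat 4 called upregulated and 4 downregulated. Leaving out each sample gave 34 to 42 that rose, 43 to 48 that fell, 7 to 10 called upregulated, and 6 to 9 downregulated. With the replicate block, 2 of the 10 genes rose (*ASNS* at adjusted p = 0.0884 did not), 3 fell, and 2 were called upregulated. Over the lists 43 rose, 48 fell, 8 were called upregulated, and 7 downregulated. No other named gene crossed the threshold of adjusted p, but 1 gene of serine, one-carbon, and amino acid synthesis was called upregulated, against 0 in the main fit. *GAPDH* scaling moved the median gene by 0.54, so that small negative log2 fold changes reversed by its construction, which were those of *ATF6* (0.19), *XBP1* (0.0602), *DDIT3* (0.41), *TRIB3* (0.50), *PPP1R15A* (0.22), *MBTPS1* (0.40), *TXNDC5* (0.17), *VCP* (0.33), and *SEC61A1* (0.21). They reversed after thinning for *DDIT3* (0.17), *TRIB3* (0.25), and *MBTPS1* (0.0715), with a minimum of 10 counts in every sample for *TRIB3* (0.0439), and without mocetinostat replicate 1 for *TRIB3* (range over samples left out -0.2066 to 0.116). Without the filter they reversed for *ATF4* (-0.19), *EIF2S3* (-0.25), *SLC38A2* (-0.22), and *ERO1A* (-0.13), with DESeq2 for *EIF2S3* (-0.0302) and *SLC38A2* (-0.0048), and with single samples left out for *EIF2S3* (range -0.0561 to 0.0289) and *SLC38A2* (range -0.0530 to 0.0902). Calls were lost after thinning for *PPP1R15A*, *ATF6*, *EIF2B1*, *PPP1R15B*, *SLC6A9*, *UBE2J1*, and *VCP* (adjusted p from 0.0676 to 0.604), without the filter for *AARS1*, *CALR*, *PPP1R15B*, *EDEM2*, *CTH*, and *ASNS* (0.0544 to 0.728), with DESeq2 for *CTH* and *ASNS*, with *GAPDH* scaling for *SEC62*, and with glmTreat for *ERN1*, *ATF3*, *WFS1*, *SLC6A9*, and *WARS1* (0.205 to 0.721). Of 551 values over 39 named genes, 481 kept direction and side of the threshold, and beyond the shift with *GAPDH* the cause of the other differences was not tested. Thinning was a single random draw that left every sample except the shallowest with fewer reads, and the part of that loss in the calls lost was not tested. Few reads limit the precision of *ASNS* (SE 0.44), *TXNDC5* (SE 0.43), and *CTH* (SE 0.38), among others.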
